A study of Mus musculus with 10 samples.

Results

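The NF-kB pathway and target genes are 33 named genes of the 32285 listed in each of 5 mouse lymph node single-cell libraries. They were chosen by name: 5 Rel-family subunits, 6 members of the inhibitor of NF-kB family, 9 feedback and signalling regulators, 6 survival targets and 7 adhesion, immune and inflammatory targets. Every one of the 33 had at least 1 UMI (a counted molecule) in every library. All animals were female wild-type (WT) BALB/C mice of 8 weeks. 4T1 mice and 67NR mice carried orthotopic tumours of that breast cancer line in the 4th mammary pad for 18 days, to an endpoint of 500 mm3. LPS mice received lipopolysaccharide, a ligand of Toll-like receptor 4, under the skin and were killed after 72 hours, and naive mice were untreated. The labels used here give no LPS dose, and the treatment label of the stromal library names tumour and naive mice, so its LPS group rests on the library's name and its hashtag. Axillary nodes gave a sorted stromal library (4T1, 67NR, LPS and naive), a sorted myeloid and stromal library (called the mixed library) and a sorted T cell library (4T1, 67NR and naive each), with conditions told apart by antibody hashtags. Axillary and mediastinal nodes of naive mice gave an immune cell atlas each. The study's design names a minimum of 3 mice per condition, but nothing ties cells to mice, so a condition is 1 sum of cells in each library.

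NF-kB is a family of dimeric transcription factors that inhibitor proteins hold in the cytoplasm until Toll-like, interleukin-1, TNF or lymphotoxin receptors trigger their release. Several of the factors' own targets, among them Nfkbia and Tnfaip3, encode inhibitors of the same pathway, so that activation is followed by feedback. In lymph nodes the pathway is known for its part in organ formation through the lymphotoxin-beta receptor on stromal cells, and for maturation of dendritic cells and survival of lymphocytes. Because mRNA was measured, levels of pathway members say nothing of where the proteins were or whether they were active.

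The sites that NF-kB dimers bind share a consensus called the kB site, and 5 promoters that hold one are shown because their genes recur in the fibroblast results. RefSeq windows (build GRCm38.p6, 250 bases before to 50 after a gene's start) matched 26 of the 33 members. Searched on both strands, the kB consensus was present in 14 of these 26 (53.8%) and in 2581 of all 27025 genes with a window (9.55%). A match is a description of the letters and not of binding, and no binding was measured. The 250 bases before the start are printed 5′ to 3′ on the gene's own strand, with kB matches in capitals. Nfkbia, which encodes the inhibitor IkB-alpha, lies on the minus strand (chr12:55492648-55492897), and its match begins 29 bases before the start. Ier3, an early response gene that limits cell death, lies on the plus strand (chr17:35821463-35821712), with its match 92 bases before the start. Irf1, a transcription factor of interferon responses, lies on the plus strand (chr11:53769764-53770013), with its match 13 bases before the start. Rel, which encodes the subunit c-Rel, lies on the minus strand (chr11:23770970-23771219) with overlapping matches at 92 and 91 bases. Tnip1, whose product binds the inhibitor A20, lies on the minus strand (chr11:54962941-54963190) with 3 overlapping matches from 58 to 56 bases before the start.
Nfkbia: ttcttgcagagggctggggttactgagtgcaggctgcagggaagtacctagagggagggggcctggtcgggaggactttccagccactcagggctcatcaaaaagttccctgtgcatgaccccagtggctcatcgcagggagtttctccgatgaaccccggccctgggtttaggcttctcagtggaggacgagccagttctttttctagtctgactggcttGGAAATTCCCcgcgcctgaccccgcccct
Ier3: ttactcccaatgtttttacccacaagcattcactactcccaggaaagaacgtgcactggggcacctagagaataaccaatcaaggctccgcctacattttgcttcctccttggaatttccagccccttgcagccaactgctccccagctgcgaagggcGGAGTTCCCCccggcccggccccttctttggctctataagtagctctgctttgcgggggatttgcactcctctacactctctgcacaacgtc
Irf1: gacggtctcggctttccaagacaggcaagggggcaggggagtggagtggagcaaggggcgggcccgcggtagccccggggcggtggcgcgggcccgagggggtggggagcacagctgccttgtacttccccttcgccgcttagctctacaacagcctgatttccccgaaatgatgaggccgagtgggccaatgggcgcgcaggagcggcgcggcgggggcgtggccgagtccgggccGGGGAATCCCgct
Rel: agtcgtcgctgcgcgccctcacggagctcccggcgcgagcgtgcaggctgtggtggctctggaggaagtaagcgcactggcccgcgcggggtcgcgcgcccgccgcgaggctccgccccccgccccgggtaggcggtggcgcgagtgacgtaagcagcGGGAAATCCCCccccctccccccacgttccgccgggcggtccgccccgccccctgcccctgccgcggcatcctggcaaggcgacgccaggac
Tnip1: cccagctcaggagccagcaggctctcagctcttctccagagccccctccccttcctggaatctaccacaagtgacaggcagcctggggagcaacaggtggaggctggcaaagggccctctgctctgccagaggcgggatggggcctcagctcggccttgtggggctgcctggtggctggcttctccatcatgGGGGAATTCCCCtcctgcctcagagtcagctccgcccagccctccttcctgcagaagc

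Of the barcodes, 2350 to 25148 per library passed the filters, with a median of 2272 to 12899 gene UMIs per cell, and with 36622159 to 121022621 gene UMIs per library. Between libraries 3 to 76 cell barcodes were shared by pair. Cell classes are clusters made without the 33 genes and are called by the markers they carry, so that fibroblast-like stands for cells with markers such as Pdgfra, Col1a1, Dcn and Lum. Among fibroblast-like cells the pan-leukocyte gene Ptprc stood at 0.376 CPM in 4T1, 0.214 CPM in 67NR, 0.733 CPM in LPS and 0 in naive cells of the stromal library. In those of the mixed library it stood at 89.8 CPM in 4T1, 69.8 CPM in 67NR and 105 CPM in naive fibroblast-like cells. CPM is a gene's UMIs scaled to a fixed total of gene UMIs in each sum of cells, and since reads come from the 3′ end, levels are compared between groups and not between genes. Depth differed by condition. The median UMIs per cell were 12562.5 in 4T1, 13473 in 67NR, 15096.5 in LPS and 9683.5 in naive cells of the stromal library. They were 17445 in 4T1, 9598 in 67NR and 8834 in naive cells of the mixed library.

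Fibroblast-like cells were the class with at least 20 cells of 4T1, 67NR and naive nodes in both stromal libraries, and were tested with 2 sums per condition. In 67NR nodes Nfkb1, which encodes the precursor of an NF-kB subunit, was higher than in naive nodes, and Irf1 and Cd83 were lower. In 4T1 nodes Bcl2a1b, a copy of the anti-apoptotic gene A1, and Cd83, a maturation marker of dendritic cells, were lower than in naive nodes, and 0 members were higher. Of the 33 members tested, 1 passed as higher and 2 as lower in 67NR, where 1.73% and 0.801% of all 12851 genes tested did. In 4T1, 0 passed as higher and 2 as lower, where 0.467% and 0.366% of all genes did. The median log2 fold change over the 33 was -0.05 in 67NR and -0.04 in 4T1, against -0.006 and -0.003 over all genes. Both tumour comparisons share the naive sums. The test was edgeR's quasi-likelihood test with the library as a block and Benjamini-Hochberg adjustment over all genes. At an unadjusted p under 0.05, 5 members were higher and 5 lower in 67NR, where 16.7% of all genes passed either way, and 3 higher and 5 lower in 4T1, where 14.7% did. DESeq2 called 2 higher and 1 lower in 67NR, and 1 higher (Nfkb1, adjusted p = 0.0362) and 1 lower in 4T1. Fitted without the library block, 0 members passed in either tumour condition, with adjusted p between 0.745 and 0.920 for these 5 calls (edgeR). The sums are libraries that nothing shows to hold different mice, so p-values measure the spread between these sums.

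Nfkb1 (chr3:135584655-135691547, GRCm38) had 1105 CPM in 67NR, 863 CPM in 4T1 and 553 CPM in naive fibroblast-like cells of the stromal library. Its level in the mixed library was 2127 CPM in 67NR, 1758 CPM in 4T1 and 1260 CPM in naive cells. Both tumour conditions were above naive within each library. Its log2 fold change was 0.90 ± 0.14 in 67NR (SE, adjusted p = 0.0202, edgeR) and 0.60 ± 0.14 in 4T1 (adjusted p = 0.0932), and between 4T1 and 67NR it was -0.30 ± 0.14 (adjusted p = 0.997). The 67NR call was lost without the naive sum of the stromal library (adjusted p = 0.123), without that of the mixed library (0.0694) and without the 67NR sum of the stromal library (0.0527). The T cell gene Cd3e stood at 85.2 CPM in 67NR, 62 CPM in 4T1 and 16.1 CPM in naive fibroblast-like cells of the stromal library. In the same order it stood at 214 CPM, 251 CPM and 130 CPM in the mixed library. Over both libraries the log2 fold change of Cd3e was 1.41 in 67NR and 1.29 in 4T1. For the T cell genes Cd3d and Trac it was -1.37 and 0.12 in 67NR, and -1.91 and -0.19 in 4T1. A list of 9 lymphocyte and plasma cell markers, Cd3e among them, was also summed in the stromal library. That sum was 92.2 CPM in 67NR, 70.3 CPM in 4T1 and 27.7 CPM in naive fibroblast-like cells. Cd3e alone made up most of it in each condition, so the sum is not a second measure beside Cd3e. The part of RNA from other cells in the Nfkb1 result was not tested. The other 4 Rel-family subunits did not pass in either tumour condition. In 67NR their log2 fold changes were 0.07 ± 0.15 for Nfkb2, 0.11 ± 0.14 for Rel, 0.19 ± 0.14 for Rela and -0.05 ± 0.15 for Relb. In 4T1 they were 0.04 ± 0.15 for Nfkb2, -0.11 ± 0.14 for Rel, 0.10 ± 0.14 for Rela and -0.29 ± 0.16 for Relb.

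**Figure D1:**
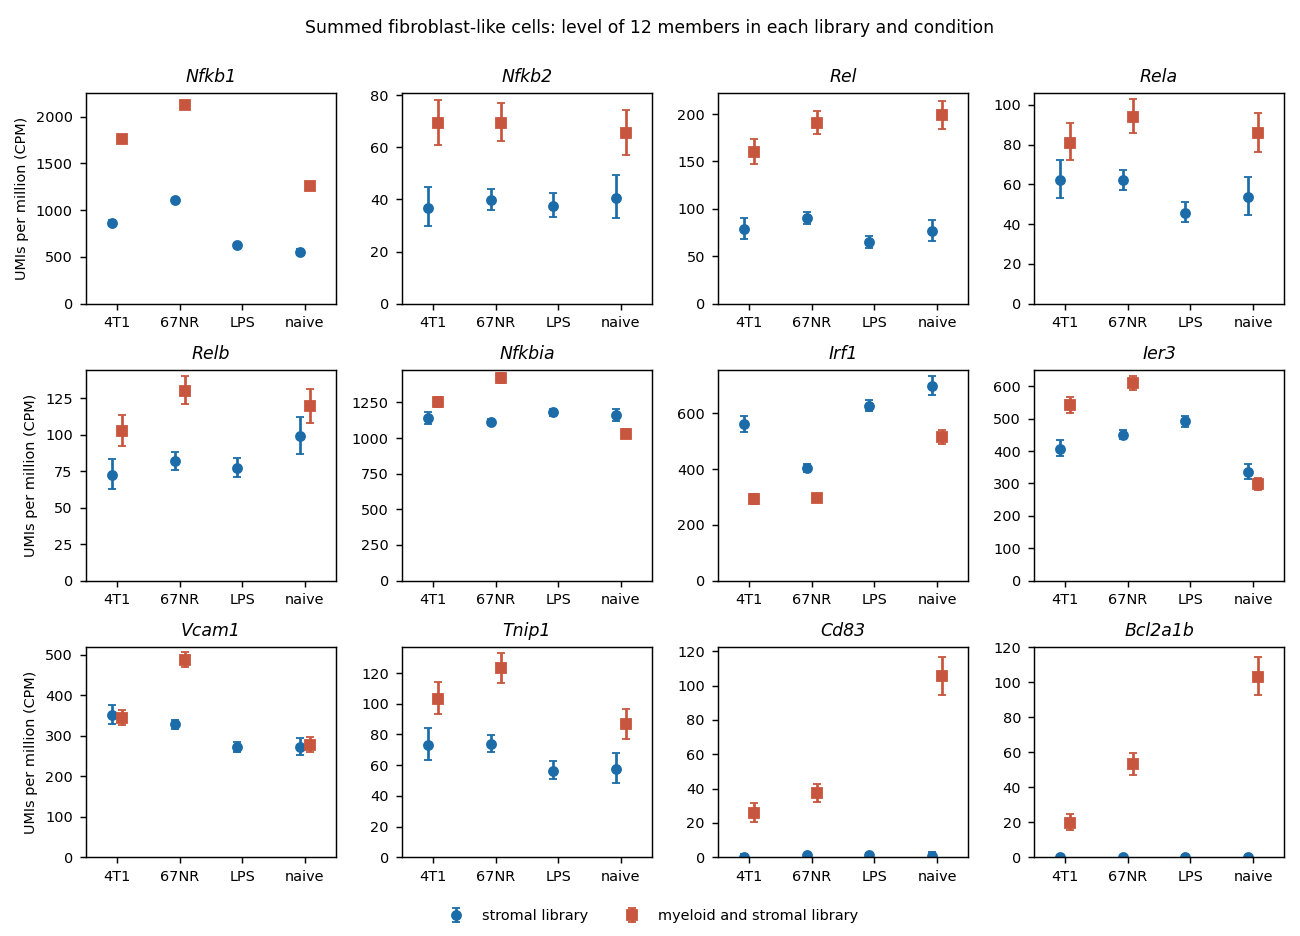
CPM of 12 members in fibroblast-like cells for 4T1, 67NR, LPS and naive nodes, with 1 point for each sum (circles for the stromal library, squares for the myeloid and stromal library) and bars for exact 95% counting intervals. Nfkb1 is lowest in naive nodes in both libraries, and Cd83 and Bcl2a1b are near 0 in every sum of the stromal library.

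The inhibitor family had no call among its 6 members in either tumour condition. Nfkbia stood at 1112 CPM in 67NR, 1138 CPM in 4T1 and 1163 CPM in naive cells of the stromal library, and at 1422 CPM in 67NR, 1252 CPM in 4T1 and 1031 CPM in naive cells of the mixed library. The tumour conditions lay below naive in the stromal library and above it in the other, and the log2 fold change was 0.22 ± 0.17 in 67NR and 0.16 ± 0.17 in 4T1. The rest of the family ran from -0.32 (Nfkbid) to 0.07 (Nfkbie) in 67NR and from -0.72 (Nfkbid) to 0.11 (Nfkbie) in 4T1. The 9 feedback and signalling regulators had no call either. Among them Tnip1 stood at 0.46 ± 0.14 in 67NR (adjusted p = 0.141) and 0.34 ± 0.15 in 4T1 (adjusted p = 0.329). Tnfaip3, the gene of the ubiquitin-editing inhibitor A20, stood at 0.41 ± 0.15 (adjusted p = 0.213) and 0.32 ± 0.16 (adjusted p = 0.387). The lowest regulator was Tnip3, at -1.35 in 67NR and -1.72 in 4T1 (adjusted p = 0.0753 and 0.0612), a gene at or near 0 in the stromal library.

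Irf1 (chr11:53770014-53778374) fell in 67NR, by 0.77 ± 0.16 on the log2 scale (adjusted p = 0.0448, edgeR). It had 404 CPM in 67NR, 563 CPM in 4T1 and 698 CPM in naive cells of the stromal library. Its mixed library levels were 296 CPM in 67NR, 291 CPM in 4T1 and 515 CPM in naive cells. Naive was the highest condition in both libraries, and in 4T1 the log2 fold change was -0.52 ± 0.16 (adjusted p = 0.187). Leaving out single sums gave adjusted p between 0.0101 and 0.246 for the 67NR comparison. Ier3 had 451 CPM in 67NR, 408 CPM in 4T1 and 336 CPM in naive cells of the stromal library, and 611 CPM in 67NR, 542 CPM in 4T1 and 298 CPM in naive cells of the mixed library. Its log2 fold change of 0.74 ± 0.19 in 67NR and 0.60 ± 0.19 in 4T1 did not pass (adjusted p = 0.0852 and 0.187). Vcam1, an adhesion molecule that binds integrins of leukocytes, stood at 0.57 ± 0.18 in 67NR and 0.38 ± 0.18 in 4T1 (adjusted p = 0.147 and 0.374).

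The calls of Cd83 and Bcl2a1b rest on the mixed library. There Cd83 (chr13:43784775-43803132) had 25.7 CPM in 4T1, 37.3 CPM in 67NR and 105 CPM in naive fibroblast-like cells, whereas in the stromal library it had 0.376 CPM in 4T1, 1.18 CPM in 67NR and 0.825 CPM in naive cells. Bcl2a1b (chr9:89199209-89207827) had 19.7 CPM in 4T1, 53.1 CPM in 67NR and 103 CPM in naive cells of the mixed library, and 0 UMIs in 4T1, 1 in 67NR and 0 in naive cells of the stromal library. Their UMIs lay in few cells: the 37 cells with the most, of 727 fibroblast-like cells of the mixed library, held 88.8% of the Cd83 UMIs, 89.4% of those of Bcl2a1b, 91% of those of Bcl2a1d and 96.4% of those of Tnip3, against 23.5% of those of Nfkb1. Bcl2a1b is a near-identical copy of Bcl2a1d, so reads may be split between them, and both are uncertain. The log2 fold change of Cd83 was -1.89 ± 0.29 in 4T1 (adjusted p = 0.0377) and -1.27 ± 0.27 in 67NR (adjusted p = 0.045), and that of Bcl2a1b was -2.30 ± 0.25 in 4T1 (adjusted p = 0.0158) and -0.88 ± 0.22 in 67NR (adjusted p = 0.0866). Without the naive sum of the mixed library all 3 of these calls were lost. Bcl2a1b in 4T1 then stood at 0.82 (adjusted p = 0.913, edgeR), Cd83 in 4T1 at -0.25 (adjusted p = 0.972) and Cd83 in 67NR at 0.34 (adjusted p = 0.924). Without the 4T1 sum of that library the 4T1 calls were lost as well (adjusted p = 0.878 and 0.504 for Bcl2a1b and Cd83), and without the 67NR sum Cd83 in 67NR stood at 0.23. Without the naive sum of the stromal library Cd83 in 67NR had an adjusted p of 0.0598. In the same fibroblast-like sums the summed level of 10 myeloid markers was 1917 CPM in 4T1, 3843 CPM in 67NR and 3034 CPM in naive cells of that library, and 5.64 CPM in 4T1, 7.16 CPM in 67NR and 10.7 CPM in naive cells of the stromal library. The part of RNA from other cells in these calls was not tested.

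**Figure D2:**
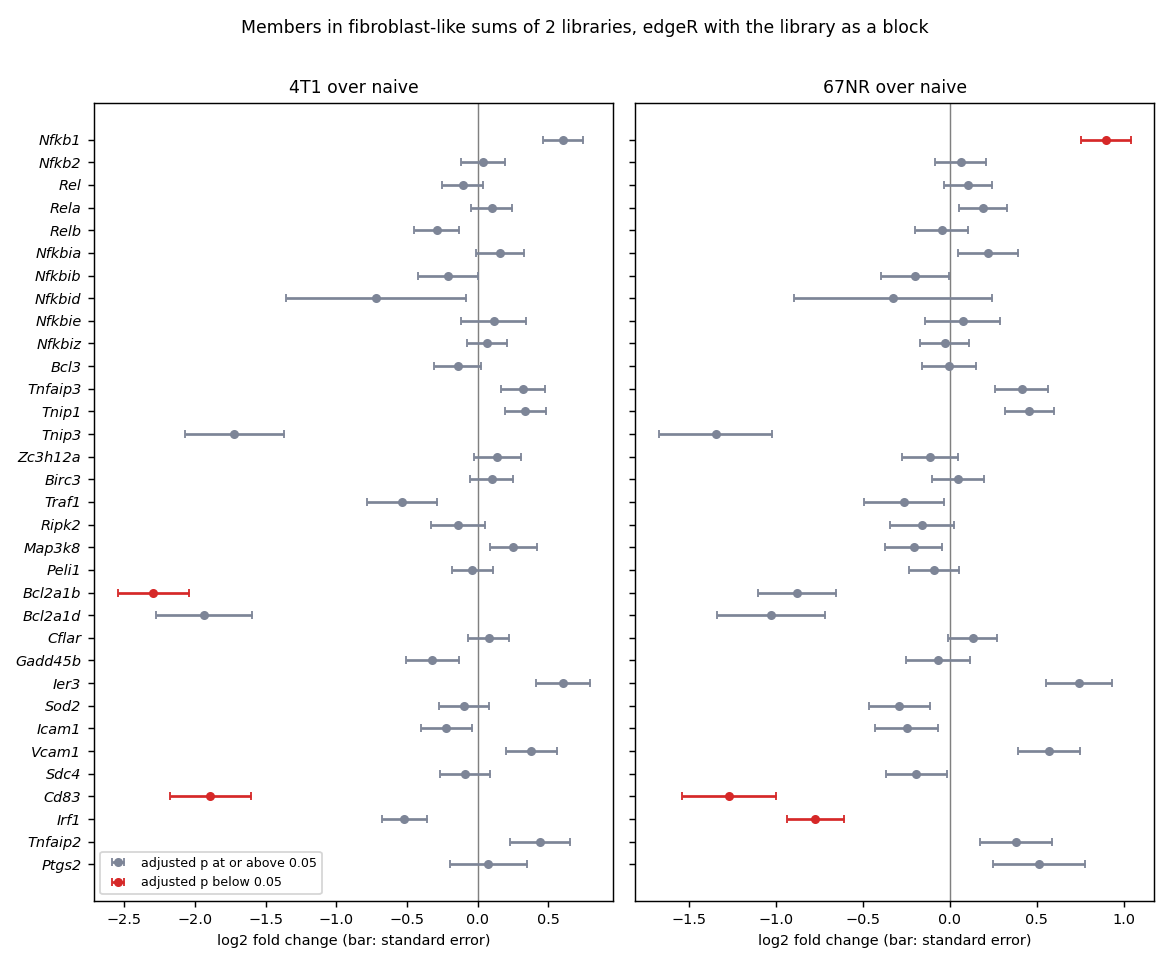
edgeR log2 fold change over naive, with SE, of all 33 members in fibroblast-like cells, for 4T1 (left) and 67NR (right), with adjusted p below 0.05 in red. Red marks Bcl2a1b and Cd83 in 4T1, and Nfkb1, Irf1 and Cd83 in 67NR.

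Between the tumours, 0 of the 33 members passed in either direction, with 0.0156% of all genes higher and 0.0233% lower in 4T1 than in 67NR; DESeq2 also called 0. At an unadjusted p under 0.05 by edgeR, 1 member was higher in 4T1 and 2 were lower, where 4.68% of all genes passed either way. These were Map3k8 (0.46 ± 0.16), a kinase of the Toll-like receptor pathway, and the A1 copies Bcl2a1b (-1.42 ± 0.25) and Bcl2a1d (-0.91 ± 0.34). Nearly equal levels cannot be inferred from this, since 2 sums per tumour leave a 4T1 over 67NR standard error of 0.14 to 0.61 per member.

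The makeup of the fibroblast-like cells differed between conditions, so the same test was repeated without the clusters led by Smpd3 in each library, a choice made after seeing the data. In the stromal library that cluster held 228 of 572 fibroblast-like cells in 67NR, 37 of 155 in 4T1 and 17 of 192 in naive nodes. The Smpd3-led cluster of the mixed library held 106 of 297 in 67NR, 108 of 208 in 4T1 and 58 of 222 in naive nodes. Without it 4 members rose in 67NR: Nfkb1 (1.08, adjusted p = 0.00329), Vcam1 (1.01, adjusted p = 0.00737), Ier3 (1.13, adjusted p = 0.0226) and Tnip1 (0.85, adjusted p = 0.0239, edgeR), where 1.86% of all 11850 genes tested rose. In 4T1 Vcam1 (0.87, adjusted p = 0.024) and Nfkb1 (0.65, adjusted p = 0.0469) rose, where 0.895% of all genes did. Bcl2a1b was lower in 4T1 (-1.90, adjusted p = 0.0391), where 0.371% of all genes were. In 67NR 0 members were lower by edgeR, where 0.439% of all genes were, with 1 member lower at an unadjusted p under 0.05. The median of the 33 was then 0.20 in 67NR and 0.26 in 4T1, against -0.02 and -0.01 over all genes. With a hashtag required to reach 10 times the next, 0 members passed in either tumour condition of the main comparison, with 5 higher and 5 lower at an unadjusted p under 0.05 in 4T1 (10.9% of all genes) and 5 higher and 4 lower in 67NR (11.7%).

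Other genes of the pathway were taken from lists of non-members. Of 62 upstream and signalling genes, from receptors to kinases, 53 were tested and 1 rose in each tumour condition: Tnfsf11, which encodes the cytokine RANKL, by 1.77 in 4T1 and 1.44 in 67NR. Of 32 other cytokine and effector genes regulated by NF-kB, 28 were tested, and 4 rose and 3 fell in 4T1, while 8 rose and 5 fell in 67NR. Those that rose most in 4T1 were Csf3 (4.23), a growth factor of neutrophils, and the neutrophil-attracting chemokines Cxcl3 (2.68) and Cxcl2 (1.15), with Il6 at 0.99. In 67NR Csf3 (4.52), Csf2 (4.50), Cxcl5 (2.43) and Cxcl3 (2.28) rose most. Ccr7, Ccl22 and Ccl5, genes of dendritic and lymphoid cells, fell in both comparisons.

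LPS had 1 sum of fibroblast-like cells (395 cells, against 192 naive cells of the stromal library), so its ratios carry exact binomial 95% intervals for counting error and no test. Of the 33 members, 27 reached the minimum of 50 UMIs over both groups, and 0 differed by 2-fold or more either way, where 3.14% of all 10396 genes measured did. The median log2 ratio was -0.11 over the 27 members and -0.02 over all genes. The members ran from Sdc4, a heparan sulphate proteoglycan, at -0.68 to Ier3 at 0.55. Nfkb1 had 630 CPM in LPS and 553 CPM in naive cells (log2 ratio 0.19, interval 0.10 to 0.28), and Nfkbia 1181 CPM and 1163 CPM (0.02, interval -0.04 to 0.08). Nfkb2 stood at -0.11 (-0.45 to 0.24), Rel at -0.23 (-0.48 to 0.03), Rela at -0.23 (-0.53 to 0.08) and Relb at -0.36 (-0.58 to -0.13). Of 43 upstream genes measured 0 were past 2-fold, and of 19 effector genes 5 were higher and 0 lower. These were Saa3, an acute-phase protein, at 219 CPM in LPS and 0.825 CPM in naive cells (log2 ratio 8.05), Lcn2 (4.79), Cxcl5 (2.31), Olr1 (2.08) and Ccl5 (1.68). The sum of 18 dissociation stress genes was 21567 CPM in 4T1, 20679 CPM in 67NR, 18598 CPM in LPS and 27700 CPM in naive cells, and its part in these ratios was not tested.

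Within each library alone, members of the tumour sums were called by the same 2-fold rule. In the stromal library 0 of 27 members in 4T1 and 0 of 28 in 67NR were past 2-fold, with Nfkb1 at 0.64 (0.54 to 0.74) in 4T1 and 1.00 (0.92 to 1.08) in 67NR, just short of the limit. In the mixed library 4 of 32 members were lower in 4T1, where 4% of all genes were: Bcl2a1b (-2.39), Cd83 (-2.03), Bcl2a1d (-2.03) and Tnip3 (-1.79). In 67NR 1 of 33 was higher and 3 were lower, where 4.84% of all genes were past 2-fold either way: Ier3 at 1.04, and Cd83 (37.3 CPM in 67NR and 105 CPM in naive cells), Tnip3 (-1.44) and Bcl2a1d (-1.09). The Nfkb1 ratio there was 0.48 (0.42 to 0.54) in 4T1 and 0.76 (0.71 to 0.81) in 67NR.

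T-zone reticular-like cells are led by Ccl19 and Ccl21a in part of their clusters. Cells of this kind form the scaffold on which T cells and dendritic cells meet. In 67NR nodes of the stromal library 6 of 26 measured members were at least 2-fold higher and 0 lower, where 4.99% of all 6098 genes were higher, and the median was 0.55 over the members and 0.02 over all genes. There the subset pools 2 clusters. That led by Inmt and Ptn held 47 of 117 cells in 67NR and 42 of 56 naive cells. Within it 3 of 22 members were higher and 0 lower in 67NR, where 4.6% of all genes were higher. The other, led by Ccl19, had 14 naive cells and was not compared alone. The part of these shares in the counts was not tested. Of 31 members in the mixed library 7 were higher and 1 lower in 67NR, where 4.43% of all genes were higher, with a median of 0.29 over the members and 0.01 over all genes. That library's subset holds a cluster led by Pcdh15, Cxcl13 and Cr2 (5, 17 and 5 cells in 4T1, 67NR and naive nodes), where Cxcl13 and Cr2 are markers of follicular dendritic cells. In its other cluster, led by Ccl21a and Ccl19, 8 of 31 members were higher and 0 lower in 67NR, where 5.02% of all genes were higher. The 18 dissociation stress genes summed to 21930 CPM in 67NR and 19972 CPM in naive cells of the subset in the stromal library, with 3 at least 2-fold higher, and to 16632 CPM and 15990 CPM in the other, with 0. Their part in the members' ratios was not tested. The subset had 117 cells in 67NR and 56 in naive nodes of the stromal library, and 101 and 56 in the other. No test across samples exists within a library; with both libraries as 2 sums, Ier3 passed in 67NR (log2 fold change 1.73, adjusted p = 0.0422, edgeR) and no other member did, where 0.104% of all genes were higher.

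Ier3 had 548 CPM in 4T1, 1040 CPM in 67NR, 671 CPM in LPS and 291 CPM in naive T-zone reticular-like cells of the stromal library, and 1251 CPM in 4T1, 1313 CPM in 67NR and 450 CPM in naive cells of the mixed library. All 5 sums of treated or tumour-bearing mice were above the naive sum of their library. The log2 ratio in 67NR was 1.84 (1.61 to 2.08) in the stromal library and 1.55 (1.34 to 1.75) in the mixed library. Nfkb1 had 255 CPM in 4T1, 537 CPM in 67NR, 363 CPM in LPS and 224 CPM in naive cells of the stromal library. In the other it had 1565 CPM in 4T1, 1864 CPM in 67NR and 676 CPM in naive cells. Its 67NR ratios were 1.26 (0.99 to 1.54) and 1.46 (1.30 to 1.63). Nfkbia had 912 CPM in 4T1, 1210 CPM in 67NR, 1246 CPM in LPS and 836 CPM in naive cells of the stromal library. In the other it had 1962 CPM in 4T1, 1688 CPM in 67NR and 964 CPM in naive cells, so it too was lowest in naive nodes in both. Vcam1 had 749 CPM in 4T1, 1001 CPM in 67NR, 712 CPM in LPS and 370 CPM in naive cells of the stromal library.

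Also past 2-fold in 67NR of the stromal library were Ptgs2, the inducible cyclooxygenase (73.9 CPM in 67NR and 24.7 CPM in naive cells), Tnfaip3 (96.6 CPM and 37 CPM) and Tnfaip2 (212 CPM and 86.4 CPM). Rel was among those past 2-fold in 67NR of the mixed library (237 CPM in 67NR and 94.3 CPM in naive cells, ratio 1.33, 0.88 to 1.80), as was Ptgs2 (562 CPM and 263 CPM). In the stromal library Rel stood at 0.27 (-0.31 to 0.89). Rela was at 0.81 (0.09 to 1.60) and 0.58 (0.09 to 1.11) in the stromal and the mixed library, Nfkb2 at 0.55 (-0.10 to 1.24) and 0.06 (-0.44 to 0.58), and Relb at 0.48 (-0.04 to 1.03) and 0.03 (-0.31 to 0.38). Ripk2, a kinase downstream of NOD receptors, was lower in 67NR of the mixed library (-1.09). The counts of Bcl2a1b (99 UMIs in 67NR and 3 in naive cells), Tnip3 (55 and 2) and Cd83 (79 and 5) lay past 2-fold as higher there, but 1 cell each held 37.4%, 61.8% and 39.2% of those in 67NR. Their log2 ratios had intervals of 2.07 to 5.97, 1.48 to 6.48 and 1.32 to 4.26. The 10 myeloid markers summed to 866 CPM in 4T1, 1092 CPM in 67NR and 590 CPM in naive cells of that subset, and their part in these 3 genes was not tested. A per-cell marker gate was also used, which kept the fibroblast-like clusters and gave each of their cells the subset of its highest markers. With it the Ptgs2 ratio of the stromal library turned to -0.10 in 67NR. With a hashtag ratio of 10 the Tnip3 ratio turned to -0.37.

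In 4T1 the subset was smaller (38 cells in the stromal library, 68 in the other) and fewer members were past 2-fold. In the stromal library Vcam1 was higher (1.02) and Irf1 lower (231 CPM in 4T1 and 501 CPM in naive cells, -1.12) among 19 measured members, where 6.35% of all genes were past 2-fold either way. There Nfkb1 stood at 0.19 (-0.17 to 0.55), Rel at -0.68 (-1.58 to 0.18), Relb at 0.18 (-0.49 to 0.84) and Nfkbia at 0.13 (-0.06 to 0.31). In the mixed library 3 of 27 members were higher and 0 lower, where 7.56% of all genes were past 2-fold either way: Ier3 (1.48), Nfkb1 (1.21, 1.04 to 1.39) and Nfkbia (1.03, 0.88 to 1.18). Nfkb2 stood there at 0.32 (-0.20 to 0.86), Rel at 0.72 (0.23 to 1.24), Rela at 0.45 (-0.09 to 1.01) and Relb at -0.44 (-0.84 to -0.04). Within the cluster led by Ccl21a and Ccl19 4 of 27 were higher and 0 lower, where 8.53% of all genes were past 2-fold either way. With the per-cell gate 1 member of the subset was past 2-fold, as higher. The Nfkb1 ratio of 4T1 thus differed between the libraries by more than counting error.

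LPS was also set against naive within this subset (98 and 56 cells). There 3 of 26 members were at least 2-fold higher and 1 lower, where 4.13% of all genes were past 2-fold either way, and the median was 0.21 over the members and -0.06 over all genes. Ptgs2 had 145 CPM in LPS and 24.7 CPM in naive cells (ratio 2.55, 1.77 to 3.44), Ier3 671 CPM and 291 CPM (1.20, 0.97 to 1.45), and Tnfaip3 84.1 CPM and 37 CPM (1.18, 0.51 to 1.92). Ripk2 was lower (-1.10, -1.75 to -0.43). Nfkb1 stood at 0.70 (0.42 to 0.98), Nfkbia at 0.58 (0.43 to 0.72), Nfkb2 at 0.48 (-0.17 to 1.17), Rel at 0.13 (-0.45 to 0.76), Rela at 0.13 (-0.64 to 0.96) and Relb at 0.27 (-0.26 to 0.82). With the per-cell gate the Ptgs2 ratio of LPS turned to -0.09 and 0 members were past 2-fold as higher. The LPS result in this subset thus depends on how its cells were drawn. The subset is 2 clusters whose shares differ: the cluster led by Inmt and Ptn held 16 of the 38 cells in 4T1, 47 of the 117 in 67NR, 83 of the 98 in LPS and 42 of the 56 naive cells. Within that cluster Ptgs2 was at 2.10, Tnfaip3 at 1.39 and Ier3 at 1.23 in LPS, and Tnfaip2 at 1.54, Ptgs2 at 1.40, Ier3 at 1.21 and Nfkb1 at 0.53 (331 CPM in 67NR and 230 CPM in naive cells) in 67NR.

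**Figure D3:**
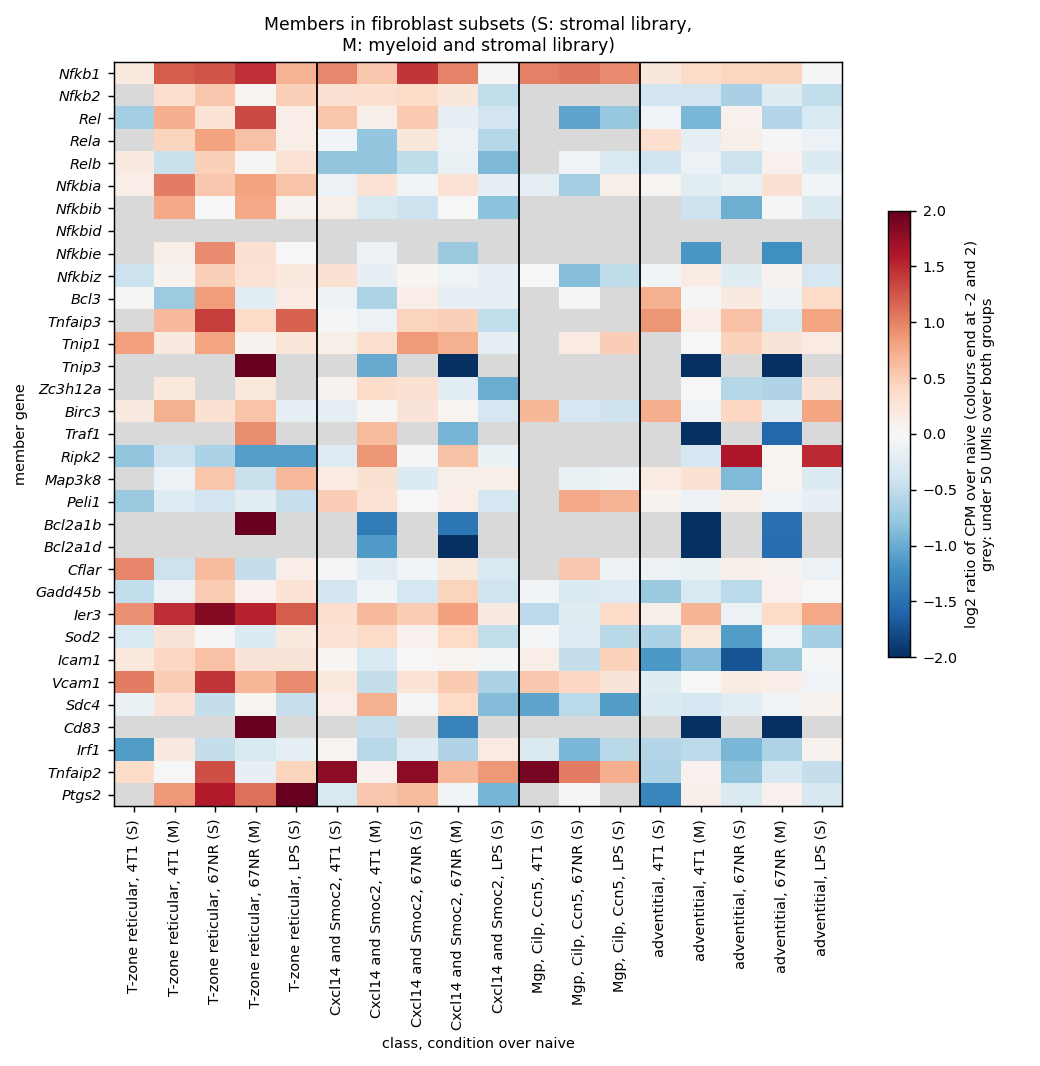
log2 ratio of CPM over naive for each member (rows) in each fibroblast subset and library (columns, S for the stromal and M for the myeloid and stromal library), with colours ending at -2 and 2 and grey for under 50 UMIs. Columns of T-zone reticular-like cells in 67NR hold the most members past 2-fold as higher, 6 in the stromal and 7 in the myeloid and stromal library.

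Cxcl14 and Smoc2 fibroblast-like cells are named for the genes that lead the stromal library's smaller cluster of them. The larger cluster there is led by Il6, Ccl7 and Has1, with neither Cxcl14 nor Smoc2 among its 10 leading genes. It held 39 of the 48 cells in 4T1, 109 of 121 in 67NR, 78 of 101 in LPS and 63 of 70 in naive nodes. Over the whole subset, Nfkb1 and Tnfaip2 were the members past 2-fold in the stromal library. Nfkb1 had 1311 CPM in 4T1, 1801 CPM in 67NR, 683 CPM in LPS and 672 CPM in naive cells, and Tnfaip2 485 CPM in 4T1, 483 CPM in 67NR, 254 CPM in LPS and 140 CPM in naive cells. Thus 2 of 26 members were higher in 67NR, where 6.57% of all genes were past 2-fold either way, 1 of 26 in 4T1 (5.82%) and 0 of 26 in LPS (4.78%). The Nfkb1 ratio was 0.96 (0.82 to 1.11) in 4T1, 1.42 (1.30 to 1.55) in 67NR and 0.02 (-0.12 to 0.17) in LPS. Within the cluster led by Il6 and Ccl7 alone, 1 of 26 members was higher and 0 lower in 4T1 (6.49% of all genes either way). In 67NR 2 of 26 were higher and 0 lower (7.43%), and in LPS 0 were higher and 1 lower (5.58%). The cells given the same subset name in the mixed library are 1 cluster led by Apod, Dcn and Iigp1, with Mgp but neither Cxcl14 nor Smoc2 among its 10 leading genes, so they are not shown to be the same cells. In that cluster Nfkb1 had 1975 CPM in 4T1, 2724 CPM in 67NR and 1366 CPM in naive cells. A fit over the sums of both libraries rests on this pairing of clusters. There Nfkb1 rose by 0.83 in 4T1 (adjusted p = 0.0207, edgeR), where 0.727% of all genes rose. In 67NR Nfkb1 (1.28, adjusted p = 0.00111), Tnip1 (0.86, adjusted p = 0.0439) and Ier3 (0.74, adjusted p = 0.0365) rose, where 1.63% of all genes did. Tnip3 (-4.44, adjusted p = 0.023) and Bcl2a1d (-2.52, adjusted p = 0.0462, edgeR) fell in 67NR, where 0.229% of all genes did. Tnip3 had 1 UMI in 67NR and 59 in naive cells of the mixed library. In LPS the median of the members was -0.35, against -0.02 over all genes. Relb stood at -0.89 (-1.28 to -0.50), Rela at -0.58 (-1.08 to -0.06), Nfkb2 at -0.50 (-1.16 to 0.18), Rel at -0.39 (-0.85 to 0.08) and Nfkbia at -0.18 (-0.28 to -0.08).

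The other subunits of this subset were below 2-fold in the tumour sums. Rel stood at 0.55 (0.09 to 1.02) in 4T1 and 0.52 (0.12 to 0.93) in 67NR of the stromal library, and Relb at -0.79 (-1.26 to -0.33) and -0.51 (-0.85 to -0.15). Nfkb2 stood there at 0.30 (-0.38 to 1.00) and 0.39 (-0.18 to 0.98). Rela was at -0.05 (-0.60 to 0.50) and 0.22 (-0.21 to 0.67), and Nfkbia at -0.12 (-0.24 to -0.01) and -0.05 (-0.15 to 0.04). Of 32 members in the mixed library 0 were higher. There 3 were lower in 4T1 and 4 in 67NR, where 8.07% of all genes were past 2-fold either way in 4T1 and 2.69% were lower in 67NR. These were Bcl2a1b, Bcl2a1d and Tnip3 in 4T1, with Cd83 as well in 67NR, genes that stood at 31.8 to 106 CPM in naive cells. With the per-cell gate 2 members were higher and 4 lower in 4T1, and 1 higher and 5 lower in 67NR. Rel stood there at 0.10 (-0.21 to 0.40) in 4T1 and -0.16 (-0.41 to 0.08) in 67NR, and Rela at -0.77 (-1.35 to -0.23) and -0.12 (-0.47 to 0.22). Relb was at -0.79 (-1.31 to -0.31) and -0.15 (-0.46 to 0.16), and Nfkb2 at 0.32 (-0.19 to 0.82) and 0.22 (-0.17 to 0.62). Nfkbia was at 0.28 (0.16 to 0.40) and 0.29 (0.20 to 0.38).

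Adventitial fibroblast-like cells are the subset that holds the Smpd3-led cluster, and more of their members were past 2-fold as lower than as higher in both tumours. Nfkb1 had 983 CPM in 4T1, 1131 CPM in 67NR, 828 CPM in LPS and 842 CPM in naive cells of the stromal library (ratios 0.22, 0.43 and -0.02), and 1759 CPM in 4T1, 1832 CPM in 67NR and 1346 CPM in naive cells of the other (0.39 and 0.45). In the stromal library 2 of 22 members were lower in 4T1, where 7.15% of all genes were past 2-fold either way: Ptgs2 (80.3 CPM in 4T1 and 198 CPM in naive cells) and Icam1, the adhesion molecule bound by leukocyte integrins (107 CPM and 237 CPM). In 67NR Icam1 (71.6 CPM in 67NR and 237 CPM in naive cells, -1.73) and Sod2, the mitochondrial superoxide dismutase (-1.11), were lower and Ripk2 was higher (1.61) among 26 members (10.1% of all genes), and in LPS Ripk2 was higher (1.49) among 26 (4.31%). The Smpd3-led cluster held 37 of the 43 cells in 4T1, 228 of 260 in 67NR, 38 of 150 in LPS and 17 of 38 in naive nodes there. With so few naive cells it was not compared alone. Within the other cluster, led by Opcml and Pcolce2, 0 of 19 members were lower and 1 higher in 67NR (8.07% of all genes either way). In LPS 0 of 25 were lower and 1 higher (6.92%). The part of these shares in the Icam1 and Sod2 ratios was not tested. Of 32 members in the mixed library 6 were lower in 4T1 (2.9% of all genes lower) and 6 in 67NR (3.67% lower): Cd83, Bcl2a1b, Bcl2a1d, Tnip3, Traf1 and Nfkbie in each, against the same naive cells. Cd83 was the lowest in 4T1 (20.8 CPM in 4T1 and 202 CPM in naive cells, -3.28) and Tnip3 in 67NR (8.39 CPM in 67NR and 66.1 CPM in naive cells, -2.98). Over both libraries Bcl2a1b, Bcl2a1d and Cd83 fell in 4T1, where 0.283% of all genes did. Tnip3, Cd83 and Icam1 (-1.25, adjusted p = 0.0368, edgeR) fell in 67NR, where 0.434% did. In the mixed library 1 cell held 28.9% of the Cd83 UMIs of 4T1 and 63.2% of the Tnip3 UMIs of 67NR. The myeloid markers of the mixed library summed to 2308 CPM in 4T1, 4500 CPM in 67NR and 3157 CPM in naive cells of this subset, and their part was not tested.

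For the remaining subunits of the adventitial-like cells, Rel stood at -0.06 (-0.55 to 0.45) in 4T1, 0.08 (-0.31 to 0.49) in 67NR and -0.30 (-0.72 to 0.13) in LPS of the stromal library, and at -0.91 (-1.14 to -0.69) in 4T1 and -0.59 (-0.80 to -0.38) in 67NR of the other. Rela, Relb and Nfkb2 lay between -0.65 and 0.33 in all 5 comparisons, and Nfkbia between -0.21 and 0.30. Mgp, Cilp and Ccn5 fibroblast-like cells were summed in the stromal library alone (26 cells in 4T1, 74 in 67NR, 46 in LPS and 28 in naive nodes). Nfkb1 had 367 CPM in 4T1, 376 CPM in 67NR, 350 CPM in LPS and 182 CPM in naive cells there, the naive sum again being the lowest, with ratios of 1.01, 1.05 and 0.95. Tnfaip2 was higher in 4T1 (269 CPM in 4T1 and 72 CPM in naive cells) and 67NR (147 CPM), Sdc4 lower in 4T1 (-1.06) and LPS (-1.11), and Rel lower in 67NR (-1.05, -1.85 to -0.23). That made 3 of 12 measured members past 2-fold in 4T1 (9.73% of all genes), 3 of 20 in 67NR (12.2%) and 1 of 18 in LPS (8.5%). Relb stood at -0.07 in 67NR and -0.30 in LPS, Rel at -0.76 in LPS, and Nfkbia at -0.20, -0.67 and 0.12 in 4T1, 67NR and LPS, and the other subunits had under 50 UMIs.

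Endothelial-like cells of the stromal library showed few members past 2-fold. In blood endothelial-like cells 1 of 27 members was lower in 4T1 (Vcam1, 33.4 CPM in 4T1 and 74 CPM in naive cells, -1.15) and 0 of 27 were past 2-fold in 67NR and in LPS, where 2.14%, 2.26% and 2.16% of all genes were past it in 4T1, 67NR and LPS. The class pools clusters in which the counts differed. In that led by Glycam1 and Ubd 3 of 21 members were lower in 4T1 (Vcam1, Gadd45b and Ier3), where 4.02% of all genes were. In that led by Plcb1 Tnip1 was higher in 4T1 (171 CPM), 67NR (180 CPM) and LPS (213 CPM) than in naive cells (64.1 CPM), and Icam1 was higher in LPS, so 2 of 11 members were past 2-fold there (4.85% of all genes). In that led by Esm1 Cflar and Tnfaip3 were lower in LPS, 2 of 20 (4.25%). In lymphatic endothelial-like cells Nfkb1 was lower in every condition than in the 27 naive cells, at 371 CPM in 4T1, 350 CPM in 67NR and 313 CPM in LPS, against 829 CPM in naive cells. The ratios were -1.16 (-1.39 to -0.93), -1.24 (-1.45 to -1.03) and -1.40 (-1.73 to -1.09), and in LPS 1 cell held 34.2% of the Nfkb1 UMIs. In LPS Rel (-1.17), Tnfaip2 (-1.05) and Cflar, a gene that blocks death receptor signalling (-1.03), were lower as well, 4 of 23 members where 5.48% of all genes were lower. In 4T1 Ier3 was higher (592 CPM in 4T1 and 246 CPM in naive cells), so 2 of 27 members were past 2-fold where 6.88% of all genes were, and in 67NR Nfkb1 was the single one of 28 (7.08%). The lymphatic cells are 2 clusters, led by Stab2 and by Ccl20, with 10 and 17 naive cells. They held 25 and 23 cells in 4T1, 40 and 31 in 67NR, and 16 and 8 in LPS. Both had under 20 naive cells, so neither was compared alone, and the part of these shares in the Nfkb1 ratios was not tested. With the per-cell gate only blood endothelial-like cells could be compared, with 0 members past 2-fold in each condition.

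In the myeloid classes of the mixed library members were mostly lower in tumour-bearing than in naive nodes. Neutrophil-like cells (275, 840 and 722 cells for 4T1, 67NR and naive) had 8 of 32 members lower and 1 higher in 4T1, and 10 of 33 lower and 0 higher in 67NR, where 9.21% and 9.48% of all genes were lower. The median log2 ratio was -0.51 in 4T1 and -0.77 in 67NR over the members, and -0.02 and -0.30 over all genes. Ptgs2 had 290 CPM in 4T1, 340 CPM in 67NR and 920 CPM in naive cells. Icam1 had 96.2 CPM in 4T1, 68.6 CPM in 67NR and 268 CPM in naive cells. Gadd45b, a stress-induced survival gene, had 573 CPM in 4T1, 500.4 CPM in 67NR and 1272 CPM in naive cells. Nfkbiz, a nuclear member of the inhibitor family that acts with NF-kB at late targets, had 551 CPM in 4T1, 662 CPM in 67NR and 1347 CPM in naive cells. Bcl2a1d (-2.15 in 4T1 and -1.38 in 67NR) and Peli1, a ubiquitin ligase of Toll-like receptor signalling (-1.08 and -1.07), were also lower in both. Bcl2a1b (-1.70) and Nfkb1 (-1.02) were lower in 4T1, and Tnfaip2 (-1.26), Ripk2 (-1.49), Nfkbid (-1.04) and Tnfaip3 (137 CPM in 67NR and 275 CPM in naive cells) in 67NR. Sdc4 was higher in 4T1 (45 CPM in 4T1 and 12.4 CPM in naive cells), but 1 cell held 44.4% of its UMIs in 4T1, and the ratio turned to -2.87 with the per-cell gate.

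The neutrophil-like cells were 5 clusters in very different shares, so the members were also read within clusters. The cluster led by Saa3 held 198 of the 275 cells in 4T1, 78 of the 840 in 67NR and 77 of the 722 naive cells, and that led by Entpd1 and Csf3r held 20, 192 and 413. In the Saa3-led cluster 13 of 31 members were lower and 1 higher in 4T1, where 9% of all genes were lower and 11.7% higher. Among the lower were Bcl2a1d (-2.77), Icam1 (144 CPM in 4T1 and 738 CPM in naive cells, -2.36), Gadd45b (-1.88) and Nfkb1 (601 CPM in 4T1, -1.13, -1.29 to -0.97). In 67NR that cluster had Irf1 (-1.05) and Peli1 (-1.02) lower and Traf1 (1.11) higher, where 5.59% of all genes were past 2-fold, and Nfkbiz there was at -0.23 and Ptgs2 at -0.30. In the Entpd1-led cluster 67NR had 1 member of 27 lower, Icam1 (-1.47), where 2.3% of all genes were lower, so most of the 10 members lower in 67NR over the class were not past 2-fold within the largest naive cluster. The sum of dissociation stress genes was 6413 CPM in 4T1, 6909 CPM in 67NR and 13485 CPM in naive neutrophil-like cells, with 7 stress genes at least 2-fold lower in each, and its part in the members' ratios was not tested.

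Monocyte-like cells (459, 200 and 208 cells for 4T1, 67NR and naive) had 8 of 33 members lower and 0 higher in 4T1, where 3.88% of all genes were lower, and 2 of 33 lower in 67NR, where 3.16% were past 2-fold either way. The median was -0.58 over the members and 0.02 over all genes in 4T1, and -0.35 and -0.02 in 67NR. Nfkbiz had 102 CPM in 4T1, 130 CPM in 67NR and 349 CPM in naive cells, the lowest ratio in both (-1.77, -1.89 to -1.64, and -1.42, -1.59 to -1.26). Cd83 had 208 CPM in 4T1 and 598 CPM in naive cells, Bcl2a1b 173 CPM and 469 CPM, and Irf1 82.3 CPM in 4T1, 80.3 CPM in 67NR and 174 CPM in naive cells. Bcl2a1d (-1.18), Map3k8 (-1.06), Icam1 (-1.02) and Birc3, a ubiquitin ligase of TNF receptor signalling (-1.01), made up the 8 in 4T1. Within the cluster led by Vcan and Ly6c2 (274, 105 and 113 cells in 4T1, 67NR and naive nodes) 9 members were lower in each tumour condition, where 4.14% of all genes were in 4T1 and 3.53% in 67NR, with Nfkbiz at -2.05 in 4T1 and -1.86 in 67NR. In the other monocyte-like cluster 6 were lower and 2 higher in 4T1, where 6.18% of all genes were past 2-fold, the higher being Sdc4 (1.30) and Ier3 (844 CPM in 4T1 and 349 CPM in naive cells, 1.27), and Map3k8 and Irf1 were lower in 67NR, where 2.78% of all genes were past it. The stress genes summed to 4526 CPM in 4T1, 4388 CPM in 67NR and 6192 CPM in naive monocyte-like cells.

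Dendritic and macrophage-like cells likewise had more members lower than higher in 4T1. In migratory dendritic-like and macrophage-like cells of 4T1 the share of members past 2-fold was near that of all genes. In cDC2-like cells (54, 47 and 160 cells in 4T1, 67NR and naive nodes) 8 of 33 members were lower and 1 higher in 4T1, where 3.94% of all genes were lower, and 2 lower and 1 higher in 67NR, where 5.44% were past 2-fold either way. Nfkbia was among those lower in 4T1 (903 CPM in 4T1 and 2205 CPM in naive cells, -1.29, -1.38 to -1.20), with Nfkbid (-1.57), Tnip1 (-1.51), Icam1 (-1.34), Tnfaip2 (-1.33) and Cflar (-1.19), and Ripk2 was higher in 4T1 (91.4 CPM) and 67NR (85.3 CPM) than in naive cells (40.4 CPM). The 10 myeloid markers of cDC2-like cells summed to 5933 CPM in 4T1, 11393 CPM in 67NR and 10755 CPM in naive cells, with 5 of them lower in 4T1, and their part was not tested. With the per-cell gate 2 members were lower and 0 higher in cDC2-like cells of 4T1, and 0 lower and 1 higher in those of 67NR. In migratory dendritic-like cells (101, 83 and 349 cells) Vcam1, Nfkbiz and Tnfaip2 were lower in 4T1, 3 of 33 where 7.18% of all genes were past 2-fold either way, and the same genes and Ptgs2 were lower in 67NR, 4 of 33 where 3.84% were lower. Nfkbiz had 150 CPM in 4T1, 133 CPM in 67NR and 310 CPM in naive cells of that class. Its stress genes summed to 4161 CPM in 4T1, 4176 CPM in 67NR and 3599 CPM in naive cells. The same sum was 4318 CPM in 4T1, 4233 CPM in 67NR and 5025 CPM in naive cDC2-like cells, and 4859 CPM in 4T1, 5323 CPM in 67NR and 6991 CPM in naive macrophage-like cells. The part of the stress genes in the members' ratios was not tested. Macrophage-like cells (161, 88 and 106 cells) had Nfkbiz (109 CPM in 4T1 and 319 CPM in naive cells, -1.55) and Peli1 (-1.07) lower in 4T1, 2 of 33 where 5.57% of all genes were past 2-fold, and Nfkbid lower (-1.16) and Ripk2 higher (1.08) in 67NR (4.69%). With the gate 0 members were lower and 1 higher in macrophage-like cells of 4T1. NK-like cells could be compared in 4T1 alone (25 cells, against 181 naive cells), with 7 of 32 members lower where 6.02% of all genes were lower, led by Tnip3, Sdc4 and Ptgs2, each with 1 to 4 UMIs in 4T1. These cells had a median of 0.13 over the 32 members, with 18 above 0, and of 0.01 over all genes. Their 10 myeloid markers summed to 5886 CPM in 4T1 and 12839 CPM in naive cells, and the part of those markers was not tested.

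**Figure D4:**
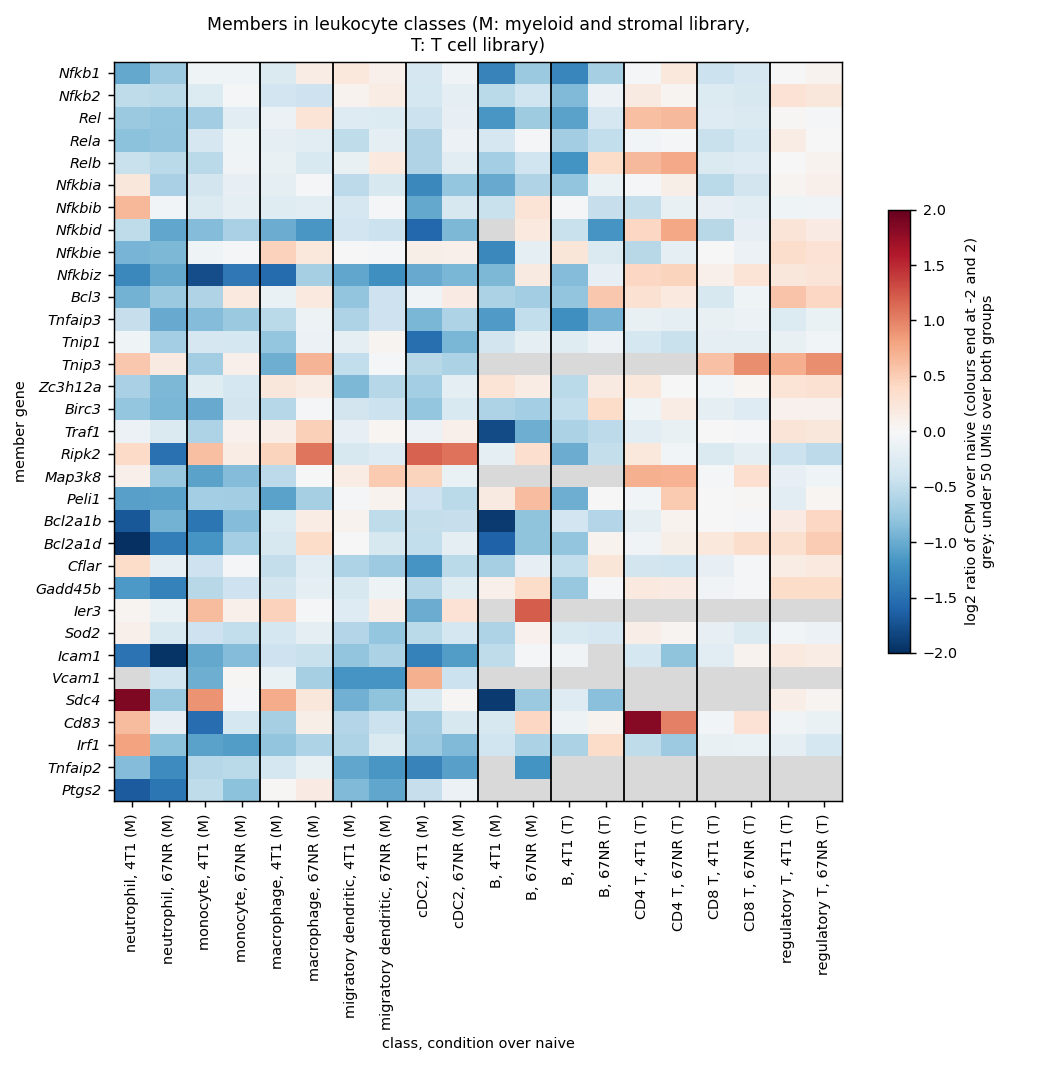
log2 ratio of CPM over naive for each member (rows) in leukocyte classes of the myeloid and stromal library and, in the last columns, the T cell library, with colours ending at -2 and 2 and grey for under 50 UMIs. Nfkbiz is lower in the neutrophil-, monocyte- and migratory dendritic-like columns of both tumours, and the CD8 T-like and regulatory T-like columns hold no member past 2-fold.

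B-like cells were few in naive nodes of both sorted libraries (33 and 61 cells), and Nfkb1 was lower in tumour-bearing nodes in both. It had 329 CPM in 4T1 and 814 CPM in naive B-like cells of the T cell library (-1.31, -1.53 to -1.09), and 194 CPM in 4T1 and 491 CPM in naive cells of the mixed library (-1.34, -1.60 to -1.08). In 67NR the ratio was -0.66 and -0.74. Rel was lower in 4T1 as well, at 730 CPM in 4T1 and 1534 CPM in naive cells of the T cell library, and at 444 CPM and 992 CPM in the other. In 4T1 4 of 27 members were lower in the T cell library (Nfkb1, Tnfaip3, Relb and Rel), where 8.26% of all genes were lower, and 9 of 26 in the mixed library, where 4.62% were. The gate left 2 of 20 measured members lower in 4T1 of the mixed library. In 67NR Nfkbid was lower in the T cell library (1 of 26, 5.51% of all genes past 2-fold), and in the other Tnfaip2 was lower and Ier3 higher (2 of 29, 13.2%), with 48.7% of the Ier3 UMIs of 67NR in 1 cell. The B-like cells of the mixed library were 2 clusters: that led by Jchain and immunoglobulin genes held 66, 69 and 9 cells for 4T1, 67NR and naive. In the other (37, 33 and 24 cells) Nfkb1 was at -0.21 (-0.54 to 0.14) in 4T1 and 0.03 (-0.31 to 0.37) in 67NR. There 1 of 12 measured members was higher and 0 lower in 4T1, where 3.94% of all genes were past 2-fold either way. In 67NR 3 of 13 were higher and 0 lower (5.61%). The lower members of the whole class were thus not seen within this cluster. In the T cell library the B-like cells were 1 cluster, whose stress genes summed to 3164 CPM in 4T1, 3939 CPM in 67NR and 5039 CPM in naive cells, and their part was not tested. The T cell gene Cd3e stood at 205 CPM in 4T1, 234 CPM in 67NR and 334 CPM in naive cells of that cluster. In B-like cells of the mixed library it stood at 0 CPM in 4T1, 0 CPM in 67NR and 15 CPM in naive nodes. The part of RNA from T cells in the B-like ratios was not tested.

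T-like cells had few members past 2-fold. Among regulatory T-like cells (490, 533 and 419 cells for 4T1, 67NR and naive) 0 of 29 members were past 2-fold in either tumour condition, where 1.07% of all genes were in 4T1 and 1.65% in 67NR. Among CD8 T-like cells (776, 716 and 697) 0 of 28 were in either, where 0.775% and 0.811% of all genes were. Members of the CD8 T-like cells ran from -0.56 (Nfkbid) to 0.59 (Tnip3) in 4T1 and from -0.37 (Nfkbia) to 0.93 (Tnip3) in 67NR, with 24 of 28 below 0 in 4T1 and 20 of 28 in 67NR. Within the CD8 T-like cluster led by Gpm6b and Cd8a 3 of 26 members were higher and 1 lower in 67NR, where 2.8% of all genes were past 2-fold either way. In that led by Hspa1b 2 of 28 were higher in 67NR (1.49%) and 1 of 28 was lower in 4T1 (1.54%). In the CD8 T-like clusters led by Dapl1 0 of 28 were past 2-fold in either tumour. Within 1 regulatory T-like cluster Nfkbid and Tnip3 were higher in 67NR (1.24 and 1.53), 2 of 29 members, where 1% of all genes were past 2-fold either way. Among CD4 T-like cells (257, 274 and 314) Cd83 was higher, at 37.5 CPM in 4T1, 21.4 CPM in 67NR and 10.6 CPM in naive cells, the single member of 27 past 2-fold in each, where 3.58% of all genes were in 4T1 and 3.06% in 67NR. The class is 2 clusters, of which that led by Il4 and Tox2 held 141, 131 and 36 cells for 4T1, 67NR and naive. Within it Cd83 stood at 0.49 (-0.40 to 1.51) in 4T1 and -0.07 (-1.01 to 0.99) in 67NR, while Ripk2 and Bcl3 were higher in both and Nfkbid in 67NR, 2 and 3 of 25 members, where 4.7% and 5.35% of all genes were past 2-fold. Within the other CD4 T-like cluster 0 of 26 were past 2-fold in either tumour. With the per-cell gate 0 members were past 2-fold in CD4 T-like cells of either tumour.

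Over 11 named classes with at least 20 cells in the axillary atlas of naive nodes, 13 of the 33 members were highest in migratory dendritic-like cells, 6 in ILC-like cells, 6 in neutrophil-like cells, 3 in gamma-delta T-like cells, 2 in monocyte-like, 2 in regulatory T-like and 1 in macrophage-like cells. For 24 members the lowest class stood below the others beyond the limit that a count of 0 allows in it, and it was cDC1-like for 19 of these. Each class is 1 sum, with 20 neutrophil-like to 2478 gamma-delta T-like cells and 3120 to 8190 UMIs per cell, so the intervals cover counting error alone and no class was tested against another.

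Among the subunits, Rel was highest in migratory dendritic-like cells at 2724 CPM, followed by B-like (1531 CPM) and regulatory T-like cells (1352 CPM), and lowest in cDC1-like cells (62.2 CPM). Nfkb1 was highest in ILC-like cells at 2090 CPM, followed by gamma-delta T-like (1889 CPM) and regulatory T-like cells (1013 CPM), and lowest in cDC1-like cells (36.1 CPM). Relb, the partner of the Nfkb2 product in the alternative pathway, had 633 CPM in migratory dendritic-like, 261 CPM in gamma-delta T-like, 202 CPM in ILC-like and 40.1 CPM in cDC1-like cells. Nfkb2 had 129 CPM in migratory dendritic-like, 117 CPM in ILC-like, 108 CPM in gamma-delta T-like and 34.1 CPM in cDC1-like cells, and the intervals of the upper 3 overlap in the order given. Rela had 75.8 CPM in monocyte-like (interval 56.8 to 99.2), 62.3 CPM in gamma-delta T-like (58.9 to 65.9), 56.2 CPM in migratory dendritic-like (43.5 to 71.5) and 16.1 CPM in cDC1-like cells, so the upper 3 did not differ beyond counting error. Nfkbia had 1719 CPM in migratory dendritic-like, 1479 CPM in ILC-like, 1040 CPM in gamma-delta T-like and 92.3 CPM in cDC1-like cells.

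Of the targets, Cd83 had 1491 CPM in migratory dendritic-like, 616 CPM in monocyte-like and 517 CPM in B-like cells, and no UMI in the 20 neutrophil-like cells, which allows up to 31.2 CPM. Traf1, an adaptor of TNF receptors, had 932 CPM in migratory dendritic-like, 528 CPM in ILC-like, 476 CPM in regulatory T-like cells, and 1 UMI in neutrophil-like cells. Tnfaip3 had 759 CPM in ILC-like, 574 CPM in regulatory T-like, 567 CPM in gamma-delta T-like and 18.1 CPM in cDC1-like cells, and Gadd45b 1399 CPM in migratory dendritic-like, 1363 CPM in ILC-like, 618 CPM in gamma-delta T-like and 36.1 CPM in cDC1-like cells. Ier3 had 468 CPM in neutrophil-like, 389 CPM in monocyte-like, 26.4 CPM in migratory dendritic-like and 0.437 CPM in B-like cells. Tnip3 had 322 CPM in monocyte-like, 52.8 CPM in migratory dendritic-like and 5.59 CPM in regulatory T-like cells, with no UMI in neutrophil-like cells. Vcam1 had 141 CPM in macrophage-like, 37.5 CPM in migratory dendritic-like and 14 CPM in cDC1-like cells, with no UMI in neutrophil-like cells. Nfkbiz had 603 CPM in neutrophil-like (interval 458 to 780), 259 CPM in ILC-like, 210 CPM in gamma-delta T-like and 4.01 CPM in cDC1-like cells.

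**Figure D5:**
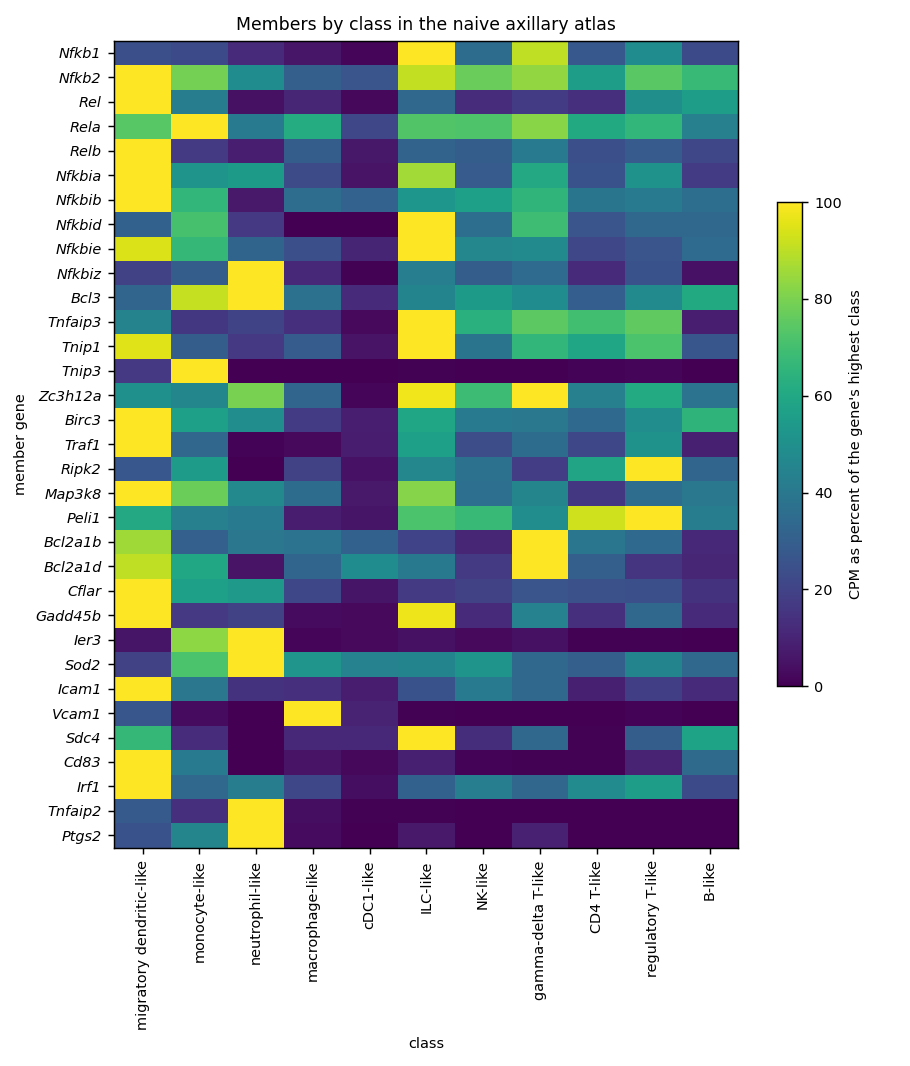
Level of each member (rows) in 11 classes of the axillary atlas (columns), as percent of the gene's CPM in its highest class. Migratory dendritic-like cells are the highest class of 13 members, and ranks below the limit of a count of 0, as in the 20 neutrophil-like cells, cannot be read.

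The mediastinal atlas was shallower (median 2272 UMIs per cell), and 3 classes could be named: B-like (787 cells), ILC-like (197) and monocyte-like (25), the other 24139 cells having no name. There 20 members were highest in ILC-like, 10 in monocyte-like and 2 in B-like cells, and Vcam1, with 1 UMI over the 3 classes, could not be ranked. Nfkb1 had 3178 CPM in ILC-like, 695 CPM in B-like and 286 CPM in monocyte-like cells, and Nfkbia 1113 CPM, 260 CPM and 237 CPM. Rel had 1355 CPM in B-like, 1314 CPM in monocyte-like and 848 CPM in ILC-like cells, and the intervals of the upper pair overlapped. Ier3 had 343 CPM in monocyte-like, 2.22 CPM in B-like and 1.99 CPM in ILC-like cells. These classes also carried genes of other lineages. The T cell gene Cd3e stood at 225 CPM in ILC-like, 229 CPM in monocyte-like and 120 CPM in B-like cells. The B cell gene Cd79a stood at 165 CPM in ILC-like and 212 CPM in monocyte-like cells. In axillary ILC-like cells Cd3e stood at 33.6 CPM and Cd79a at 8.81 CPM. The part of RNA from other cells in the mediastinal levels was not tested. Within these 3 classes the axillary atlas had the same highest class for Nfkb1 (ILC-like) and Ier3 (monocyte-like), and the atlases differ in node, depth and library, so levels were not tested between them.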

How the data were processed

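The submitters deposited raw UMI counts per gene and hashtag for each cell, which the authors made with Cell Ranger 7.0. The submitters' processing notes also name mm10. The sources used here give neither annotation nor intron setting. From these counts, cells were kept from 500 UMIs and 250 genes upward if mitochondrial UMIs made up 10% or less. A cell took the condition of its highest hashtag if that had at least 10 UMIs and at least 3 times the next, and was otherwise removed, as a doublet (6.98% to 17.0% of passing cells) or for having no hashtag. In the atlases Scrublet marked 7.62% of axillary cells. It marked 0 of the mediastinal ones, where doublets may remain. Cells were clustered (scanpy 1.11.5, 2000 variable genes, 30 components, Leiden resolution 1) without the 33 members, and clusters were named "X-like" from marker lists by a score set after seeing the data. Fibroblast-like counts were summed per condition and library and tested with edgeR 4.0.16 (quasi-likelihood, TMM, low counts filtered, library as block, threshold 0.05 adjusted over all genes). The block is the library that each set of sums shares. Other comparisons have 1 sum per condition: a log2 ratio of CPM with an exact conditional binomial 95% interval, for members with at least 50 UMIs and classes with at least 20 cells per condition, and called at 2-fold. Intervals and the limit that a count of 0 allows (3 UMIs) cover counting error only. Alternatives were DESeq2 1.42.0, other scaling and filters, a per-cell marker gate and leaving out single sums. For fibroblast subsets the gate kept the fibroblast-like clusters and reassigned their cells by subset markers. Named genes are all members passing edgeR, up to 8 members past 2-fold with an interval excluding 0, and in fibroblast comparisons the Rel-family subunits and Nfkbia; in the atlas the 3 highest classes and the lowest are given, and up to 4 genes are named from each list of non-members. The members and lists were chosen with earlier results of these data known. The edgeR test and the intervals were also run on simulated counts. These were drawn without a library effect, so they cannot show how either performs on these sums. Promoter sequences come from RefSeq (GRCm38.p6).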

Additional observations from a re-analysis of the deposited data

Results flagged for a closer look

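In sums over whole classes Nfkb1 differed from naive in opposite directions in fibroblast-like and B-like cells, and this difference between cell classes was not tested. In B-like cells the log2 ratio was -1.31 in 4T1 and -0.66 in 67NR in the T cell library, and -1.34 in 4T1 and -0.74 in 67NR in the myeloid and stromal library. In 4T1 fibroblast-like cells it was 0.64 in the stromal and 0.48 in the myeloid and stromal library. Among subsets it was 0.96 and 0.53 in Cxcl14 and Smoc2 cells of 4T1 (mostly a cluster led by Il6 and Ccl7 in the first library, and a cluster led by Apod and Dcn in the second), 0.22 and 0.39 in adventitial cells of 4T1, and 1.26 and 1.46 in T-zone reticular cells of 67NR, each in the stromal library and then in the myeloid and stromal library. The T-zone reticular cells of the stromal library differed in makeup between conditions. Their cluster led by Inmt and Ptn held 47 of 117 cells in 67NR and 42 of 56 naive cells. Within it the Nfkb1 ratio was 0.53 in 67NR, and the part of these shares was not tested. Each value compares 1 sum of cells per condition, and the B-like cells of the myeloid and stromal library differed in makeup between conditions. Within their cluster led by Bank1 and Cd79a (37, 33 and 24 cells in 4T1, 67NR and naive nodes) Nfkb1 did not differ beyond counting error. Its ratio there was -0.21 (-0.54 to 0.14) in 4T1 and 0.03 (-0.31 to 0.37) in 67NR.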

How the results depend on the processing

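The cause of the changes below was not tested. Single subsets also hold fewer cells than the whole class, and the part of cell number was not tested either. Fitted with no replicate block (the block is the library), 0 members and 0 genes passed in all 3 contrasts, against 2 members and 107 genes in 4T1 over naive, 3 members and 325 genes in 67NR over naive, and 0 members and 5 genes in 4T1 over 67NR. With no filter on low counts 7, 9 and 1 members and 926, 1214 and 169 genes passed. With at most 5% mitochondrial UMIs it was 1 member in each tumour over naive, with 37 genes in 4T1 over naive and 3 in 4T1 over 67NR. A hashtag ratio of 10 left 0 members in each, and 9, 28 and 0 genes. The per-cell gate gave 193 genes in 4T1 over naive and 0 in 4T1 over 67NR, where DESeq2 gave 0. Chosen after seeing the data, the T-zone subset alone gave 0 and 1 members over naive and 2, 20 and 0 genes, the adventitial subset 37 and 83 genes over naive, the Cxcl14 and Smoc2 subset 1 and 5 members over naive, 187 genes in 67NR over naive and 33 in 4T1 over 67NR, and leaving out the clusters led by Smpd3 gave 3 genes in 4T1 over 67NR. Leaving out single sums gave 0 to 5 members and 1 to 506 genes in 4T1 over naive, 0 to 6 and 17 to 842 in 67NR over naive, and 0 to 1 and 4 to 39 in 4T1 over 67NR. Over the same omissions Bcl2a1b in 4T1 lay between -2.69 and 0.82 and Cd83 in 67NR between -1.43 and 0.34, turning to 0.23 without the 67NR sum of the myeloid and stromal library. Cd83 in the T-zone subset alone turned to 0.83 in 4T1 and 2.55 in 67NR. Calls at 2-fold in fibroblast subsets numbered 58, and 38 with a hashtag ratio of 10; in endothelial cells 8, and 0 with the gate, which left no lymphatic comparison; in myeloid classes 70, and 43 with the gate; in T cell classes 7, and 13 with a hashtag ratio of 10. The gate turned Ptgs2 in T-zone cells of the stromal library to -0.10 in 67NR and to -0.087 in LPS, Sdc4 in neutrophil-like cells to -2.87 in 4T1, and in B-like cells of the myeloid and stromal library Bcl2a1d to 0.012 in 4T1 and Tnfaip2 to 0.20 in 67NR. A hashtag ratio of 10 turned Tnip3 in T-zone cells of that library to -0.37 in 67NR. Depth limits the smaller classes most, since members under 50 UMIs were not compared. The gate also gave no value for Mgp, Cilp and Ccn5 fibroblast-like cells, NK-like cells, macrophage-like cells in 67NR and B-like cells of the T cell library in 67NR.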
